A study of Mus musculus with 12 samples.

Results

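The interleukin-6 (IL-6) family was examined in mouse spinal cord white matter before and after a demyelinating injury, in young and middle-aged animals. Its members here were 10 of the 46078 genes counted, taken by their symbols: the cytokines Il6, Osm (oncostatin M), Lif (leukaemia inhibitory factor), Cntf (ciliary neurotrophic factor), Il11 and Clcf1 (cardiotrophin-like cytokine factor), the receptor genes Il6st, Il6ra and Lifr, and the inhibitor Socs3. All 10 had a row in the count table. A total of 9 passed the filter on low counts and entered the test across genes, and Cntf did not.

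The 12 libraries came from ventrolateral white matter of C57Bl6 mice, cut from sections by laser capture. They fell into 4 groups of 3 pools, each pool holding RNA of 5 mice, with naïve and injured groups of young and of middle-aged animals. The young mice were 6 weeks and the middle-aged mice 8 months old. Injured mice had received lysolecithin, a detergent-like lipid that strips myelin, into the ventral white matter, and their lesions were taken at 72 h (day 3). Naïve mice had no injection, so the effects of lysolecithin, of the needle and of the injected volume cannot be told apart. The labels name no transgene and no further treatment. Positions below are on GRCm38.

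IL-6 family cytokines are recognised by receptor complexes that share the signal-transducing chain gp130, the product of Il6st. Each cytokine adds a partner chain: the IL-6 receptor (Il6ra) for IL-6, the LIF receptor (Lifr) for LIF, and either Lifr or the oncostatin M receptor (Osmr) for oncostatin M. The engaged complex activates JAK kinases and the transcription factor STAT3, and Socs3, itself switched on by STAT3, binds gp130 and JAK and shuts the signal down. In the central nervous system the family is known for astrocyte reactivity, for support of oligodendrocytes and neurons by LIF and CNTF, and for release of oncostatin M by myeloid cells.

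The libraries held 9834447 to 12807437 counts, so that 3 counts, taken as the detection floor, equalled 0.234 to 0.305 CPM (counts scaled to the library total). Within-group correlations of log2 CPM were 0.967 to 0.988 except for middle-aged naïve replicate 2, which correlated at 0.937 and 0.945 with the other pools of its group. The summed CPM of 6 oligodendrocyte markers was the highest of the 9 marker lists in every group, as befits white matter, at 86590 to 101800 in young naïve pools and 52940 to 60240 in middle-aged naïve pools. After injury it was 18230 to 20230 in the young and 7920 to 12430 in the middle-aged pools. In pooled bulk tissue, fewer cells of a type and less RNA per cell cannot be told apart. Levels below are CPM on totals adjusted by the trimmed mean of M values (TMM), given with the SD of 3 pools.

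Sequences before the starts of Socs3, Lif and Il6 are shown because these genes take part in the feedback and induction of the pathway, and because the windows before their RefSeq starts held a motif of the STAT, AP-1, C/EBP or NF-kB factors. They are RefSeq sequences on GRCm38.p6, printed 5′ to 3′ on the gene's own strand and cut so that they hold no GENCODE exon of the gene. The Lif and Il6 windows lie before every annotated transcript, while the Socs3 window lies before the RefSeq start but within an intron of a longer GENCODE transcript. Capitals mark the motif matches. The Socs3 window is chr11:117969452-117969616 on the minus strand, the Lif window chr11:4257318-4257556 on the plus strand, and the Il6 window chr5:30012864-30013113 on the plus strand.
Socs3: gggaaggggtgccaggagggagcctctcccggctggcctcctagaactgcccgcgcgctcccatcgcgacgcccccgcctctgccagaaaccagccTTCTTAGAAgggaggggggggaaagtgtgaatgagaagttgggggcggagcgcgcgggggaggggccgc
Lif: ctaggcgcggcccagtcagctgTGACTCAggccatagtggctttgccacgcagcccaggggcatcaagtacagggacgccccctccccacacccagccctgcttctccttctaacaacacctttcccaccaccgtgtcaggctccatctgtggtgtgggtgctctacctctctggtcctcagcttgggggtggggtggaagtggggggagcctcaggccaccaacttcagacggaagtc
Il6: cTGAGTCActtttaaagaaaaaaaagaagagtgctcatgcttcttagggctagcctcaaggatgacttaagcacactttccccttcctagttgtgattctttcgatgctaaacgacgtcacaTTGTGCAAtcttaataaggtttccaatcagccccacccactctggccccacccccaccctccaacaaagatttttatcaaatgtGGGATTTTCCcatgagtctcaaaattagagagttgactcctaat
The Socs3 window held the STAT motif TTCNNNGAA as TTCTTAGAA, from -154 to -146 relative to the RefSeq start. The Lif window held the AP-1 motif TGANTCA as TGACTCA, from -228 to -222. The Il6 window held AP-1 as TGAGTCA from -249 to -243, the C/EBP motif TTGNGCAA as TTGTGCAA from -128 to -121, and the NF-kB motif (GGGA and TTCC with 2 bases between) as GGGATTTTCC from -44 to -35. Both strands were searched over 250 bases. Among 32851 such windows of all genes, 7.02% held the STAT motif, 6.75% AP-1, 2.61% C/EBP and 1.21% NF-kB. Of the 8 members with a RefSeq promoter entry, Socs3 alone had a STAT motif in its window. An AP-1 match was also found for Cntf and in 1 of 2 windows of Il11, members that were not called after injury. These matches describe letters and do not show binding.

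In lesions, oncostatin M, LIF, Clcf1, the IL-6 receptor and Socs3 were higher than in naïve white matter at both ages, the LIF receptor was lower, and Il6 was called higher in the middle-aged mice. The young comparison called 5 of the 9 members tested higher and 1 lower, where 54.6% of all 15866 genes tested were called (28.3% higher and 26.3% lower). The middle-aged comparison called 6 higher and 1 lower, where 58.5% of all genes were called (29.2% higher and 29.3% lower). The 9 members had a median log2 fold change of 1.84 (young) and 2.81 (middle-aged), against 0.001 and -0.03 over all genes. With so many genes called in either comparison, the count of members says little, and the direction and size of each member are given below. Values are edgeR quasi-likelihood fits with Benjamini-Hochberg adjustment over all genes tested.

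**Figure D1:**
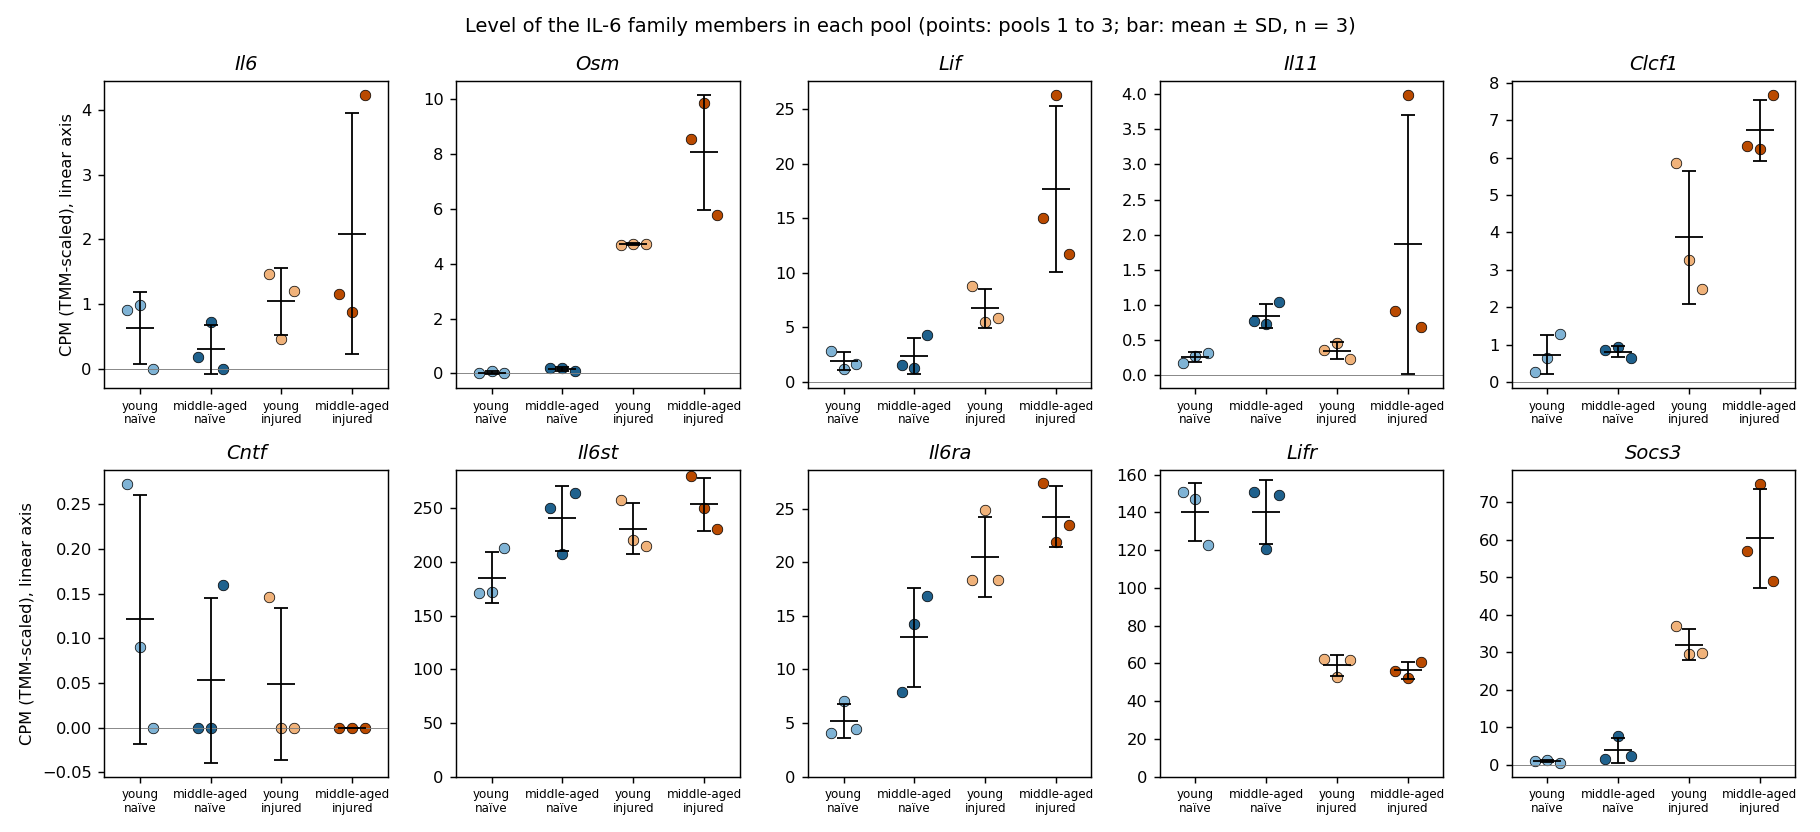
Level of each of the 10 members in every pool, as TMM-scaled CPM on a linear axis that differs between panels. Coloured points are the 3 pools of a group and black bars the mean ± SD. Injured and naïve points of either age do not overlap for Osm, Lif, Clcf1, Il6ra, Lifr and Socs3, and Cntf stays at or below 0.273 CPM.

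Osm, on chr11:4236420-4241026, encodes a cytokine that acts through gp130 with Osmr or Lifr. It was near absent without injury, with 0, 1 and 0 counts in the young naïve pools and 2, 2 and 1 counts in the middle-aged naïve pools. After injury it gave 64, 61 and 63 counts in the young pools and 103, 124 and 67 in the middle-aged ones. The 3 young injured pools were nearly equal, at 4.69, 4.72 and 4.74 CPM, and each was below all middle-aged injured pools, at 8.54, 9.89 and 5.78 CPM. The ratio of summed counts on adjusted totals was 148 in young mice (188 against 1 count), with a 95% counting interval of 26.2 to 5870. It was 52.8 in middle-aged mice (294 against 5 counts), with an interval of 22.4 to 164. The fitted log2 fold changes were 6.80 ± 0.60 (SE, adjusted p = 3.34e-07, edgeR) and 5.61 ± 0.47 (SE, adjusted p = 1.74e-07, edgeR). The young value rests on 1 naïve count, and without young naïve replicate 2, which held it, the fit gave 8.79 (adjusted p = 3.89e-06, edgeR).

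Lif lies 16530 bases downstream of Osm, on chr11:4257557-4272514, and encodes a cytokine known to support oligodendrocytes. Its level was 2.82, 1.177 and 1.61 CPM in young naïve pools and 1.53, 1.26 and 4.24 CPM in middle-aged naïve pools. After injury the young pools had 8.80, 5.50 and 5.87 CPM and the middle-aged pools 15.0, 26.3 and 11.7 CPM. Every injured pool was above every naïve pool, and middle-aged naïve replicate 3 was the highest of the naïve pools. In young mice the rise of Lif on the log2 scale was 1.84 ± 0.47 (SE, adjusted p = 0.00387, edgeR). In middle-aged mice it was 2.88 ± 0.45 (SE, adjusted p = 7.43e-05, edgeR), and 3.65 without middle-aged naïve replicate 3.

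Clcf1, on chr19:4214238-4223490, encodes a cytokine that signals through the CNTF receptor. It was 0.273, 0.634 and 1.29 CPM in young naïve and 0.863, 0.943 and 0.639 CPM in middle-aged naïve pools. In lesions the young pools had 5.87, 3.25 and 2.48 CPM and the middle-aged pools 6.30, 6.22 and 7.67 CPM. No injured pool fell within the naïve range. Clcf1 was higher by 2.42 ± 0.47 in the young (SE, adjusted p = 0.000587, edgeR) and by 3.04 ± 0.46 in the middle-aged lesions (SE, adjusted p = 5.79e-05, edgeR). Without young naïve replicate 3 the young value was 3.06.

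Il6, on chr5:30013114-30019981, encodes the cytokine that names the family and was sparse in all groups. Young mice had 10, 11 and 0 counts in naïve and 20, 6 and 16 in injured pools. Middle-aged mice had 2, 7 and 0 counts in naïve and 14, 11 and 49 in injured pools. Naïve and injured pools overlapped in young mice and did not in middle-aged mice, where replicate 3 held more counts than the other injured pools together. The young difference was 0.68 on the log2 scale, with a 95% interval of -1.33 to 2.68 (adjusted p = 0.570, edgeR), so neither a rise nor a fall was shown at this depth. In middle-aged mice Il6 was higher by 2.81 ± 1.02 (SE, adjusted p = 0.0286, edgeR). That call was lost without middle-aged injured replicate 3 (1.78, adjusted p = 0.182), without middle-aged naïve replicate 1 (2.60, adjusted p = 0.0725) or without middle-aged naïve replicate 3 (2.16, adjusted p = 0.0877), while without middle-aged naïve replicate 2 it stood at 4.40 (adjusted p = 0.00833, edgeR).

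Il11 and Cntf did not pass a test after injury. Il11 (chr7:4772373-4782859), whose product acts on fibroblasts and haematopoietic cells through Il11ra1, had 2 to 13 counts in naïve pools. Lesions held 5, 6 and 3 counts in young and 11, 50 and 8 in middle-aged mice. Its log2 fold changes were 0.44 (95% interval -1.31 to 2.19, adjusted p = 0.675, edgeR) and 1.13 (95% interval -0.19 to 2.44, adjusted p = 0.130, edgeR). Without middle-aged injured replicate 2, the pool with 50 counts, the middle-aged value was -0.09, and without replicate 3 it was 1.52 and past the threshold (adjusted p = 0.0476, edgeR). Cntf (chr19:12763660-12765632), which encodes a factor known from astrocytes and Schwann cells, had 0 to 3 counts in every pool and 0 in all 3 middle-aged injured pools. In the deposited table this low count is uncertain, since 847 bases of its exon, 78.9% of the length, are shared with Zfp91, and reads there can be dropped or assigned to the other gene. An exact permutation test over the 12 pools, with labels exchanged within each age, gave a log2 difference of -0.34 and a 2-sided p of 0.35, where the smallest p the design allows is 0.005.

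Of the receptor genes, the shared chain had the highest level per length of exon, as given below, and the smallest log2 fold changes. Il6st, on chr13:112464070-112510086, was 171, 172 and 213 CPM in naïve and 258, 221 and 215 CPM in injured pools of young mice. In middle-aged mice it was 250.3, 207 and 265 CPM in naïve and 280.1, 250.7 and 230.4 CPM in injured pools. Every young injured pool was above every young naïve pool, by a narrow margin, while the middle-aged groups overlapped. The log2 difference was 0.32 for the young (95% interval 0.03 to 0.60, adjusted p = 0.0559, edgeR) and 0.08 for the middle-aged lesions (95% interval -0.21 to 0.36, adjusted p = 0.645, edgeR). The young value passed the threshold under 5 of 20 alternatives, with adjusted p from 0.00702 to 0.231 over all of them, among these the fits without young naïve replicate 3 (0.43, adjusted p = 0.0185) and without middle-aged naïve replicate 2 (0.32, adjusted p = 0.0300).

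Il6ra and Lifr, the partner chains among the members, moved in opposite directions. Il6ra, on chr3:89864059-89913196, was 4.09, 7.06 and 4.40 CPM in young naïve and 18.3, 24.9 and 18.4 CPM in young injured pools, a log2 fold change of 1.98 ± 0.29 (SE, adjusted p = 4.07e-05, edgeR). In middle-aged mice it was 7.86, 14.3 and 16.9 CPM in naïve and 27.4, 21.9 and 23.5 CPM in injured pools, a log2 fold change of 0.90 ± 0.27 (SE, adjusted p = 0.010, edgeR). Both ages therefore showed separated groups, with a higher naïve level in the middle-aged pools. Lifr, on chr15:7090614-7197489, was 151, 147 and 123 CPM in young naïve and 151, 121 and 149 CPM in middle-aged naïve pools. Lesions had 62.2, 52.5 and 62.0 CPM in the young and 56.1, 52.0 and 60.8 CPM in the middle-aged pools. No injured pool came near the lowest naïve pool. On the log2 scale Lifr fell by 1.25 ± 0.13 in young animals (SE, adjusted p = 1.90e-06, edgeR) and fell by 1.32 ± 0.13 in middle-aged animals (SE, adjusted p = 1.01e-06, edgeR).

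Socs3, the feedback inhibitor on chr11:117966079-117970047 whose STAT motif is printed above, was scarce in naïve tissue. It had 11, 12 and 5 counts in young naïve and 16, 73 and 29 counts in middle-aged naïve pools. After injury it had 503, 381 and 394 counts in young and 688, 939 and 568 counts in middle-aged pools. In young mice the mean was 0.875 ± 0.296 CPM in naïve and 32.0 ± 4.22 CPM in injured pools (SD, n = 3). In middle-aged animals the means were 3.83 ± 3.33 CPM and 60.3 ± 13.3 CPM. Middle-aged naïve replicate 2, at 7.65 CPM, was the highest naïve pool and still below every injured pool. On the log2 scale Socs3 was higher by 5.15 ± 0.49 in the young (SE, adjusted p = 6.30e-07, edgeR) and by 4.003 ± 0.41 in the middle-aged lesions (SE, adjusted p = 1.29e-06, edgeR). Without middle-aged naïve replicate 2 the middle-aged value was 4.94.

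**Figure D2:**
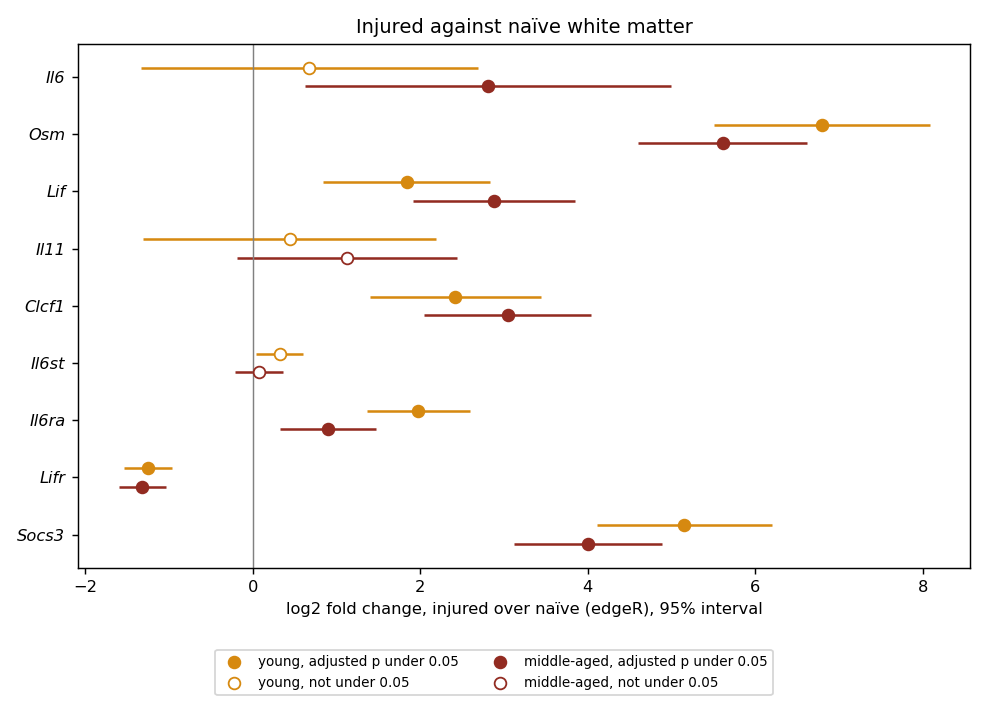
Log2 fold change of injured over naïve white matter for the 9 members tested, with 95% intervals, in young (orange) and middle-aged (dark red) mice. Filled points have an adjusted p under 0.05. Osm (6.80 and 5.61) and Socs3 (5.15 and 4.003) lie farthest to the right and Lifr (-1.25 and -1.32) is alone to the left of 0.

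The injured pools also differed from the naïve pools in markers of several cell types. All 5 pan-myeloid markers were called higher at both ages, and their summed CPM was 65.6 to 92.3 in naïve and 1219 to 1258 in injured pools of young mice. In middle-aged mice it was 97.0 to 130.4 in naïve and 1316 to 1756 in injured pools. The summed CPM of 5 neutrophil markers was 0.0 to 0.967 in young naïve and 0.314 to 0.719 in middle-aged naïve pools, with S100a8 at 0 in both, against 11.1 to 17.9 and 18.02 to 27.5 after injury. Most of the injured sums came from Mmp8, at a mean of 11.6 CPM in young and 19.6 CPM in middle-aged lesions. Ly6g, on the same list, had 0 to 1 counts in each injured pool, and Cxcr2 was not called in the young (adjusted p = 0.0678, edgeR). All 4 fibroblast markers were called higher, and 4 of 5 astrocyte and all 6 oligodendrocyte markers lower, at both ages. Of the endothelial markers Pecam1 and Cdh5 were called higher at both ages, and Cldn5 was not called. The neuron markers went both ways. Rbfox3 and Snap25 were called lower at both ages. In middle-aged lesions Syt1 was also called lower (-1.65), while Slc17a6 was called higher (1.52, adjusted p = 0.00918, edgeR). Neither was called in the young (-0.02 and 0.12). The part of these shifts in the members' changes was not tested. The summed CPM of 4 Schwann cell markers was 32.0 in young injured replicate 1 and at most 5.55 in the other 11 pools. Without that pool all 6 young calls were kept.

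Levels were also set against the summed pan-myeloid markers, per 1000 CPM of those markers. Osm was 0.445 ± 0.771 in naïve and 3.81 ± 0.0589 in injured pools of young mice, and 1.46 ± 0.738 and 4.96 ± 0.625 at the older age (SD, n = 3). Its naïve values rest on 0 to 2 counts a pool. For Socs3 the ratios were 12.4 ± 5.68 and 25.8 ± 3.37 in young pools, and 32.9 ± 27.8 and 37.5 ± 5.06 in middle-aged pools, where naïve and injured pools overlapped. The mean ratios of Lif, Clcf1, Il6ra and Il6 were lower in injured than in naïve pools. Naïve and injured pools were apart for Il6ra at both ages and for Lif in young mice. They overlapped for Lif in middle-aged mice and for Clcf1 and Il6 at both ages. Lif was 25.9 ± 14.8 and 5.42 ± 1.44 in young pools, and 19.7 ± 11.4 and 10.8 ± 3.61 in middle-aged pools. Clcf1 was 9.16 ± 4.91 and 3.12 ± 1.43 in young pools, and 7.27 ± 2.10 and 4.32 ± 1.31 in middle-aged pools. Il6ra was 71.4 ± 29.3 and 16.6 ± 3.30 in young pools, and 110.5 ± 25.8 and 15.3 ± 2.69 in middle-aged pools. Il6 was 9.52 ± 8.25 and 0.840 ± 0.413 in young pools, and 2.74 ± 3.18 and 1.46 ± 1.52 in middle-aged pools. The largest part of the marker sum was Csf1r in naïve pools, at means of 57.8 CPM in young and 68.7 CPM in middle-aged mice. In injured pools it was Cd68, at means of 742 and 1011 CPM. Log2 rises of the 5 markers ran from 2.08 (Csf1r) to 6.90 (Cd68) in young mice. In middle-aged mice they ran from 1.84 to 5.50 for the same genes. The ratios therefore depend on which markers are summed. They describe levels and were not tested.

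Compared per length of exon, the order of the members shifted with injury. In young naïve pools Il6st led at 16.7 CPM per kb, then Lifr at 13.0, and the remaining 8 members were at or below 0.600, each overlapping its neighbour in the order. In young injured pools Il6st stood at 20.8, Socs3 at 11.1, Lifr at 5.46, Il6ra at 2.37, Osm at 2.08 and Lif at 1.55 CPM per kb, with no overlap between neighbours down to Lif. In middle-aged injured pools Il6st at 22.9 and Socs3 at 20.9 overlapped. Lifr at 5.23, Lif at 4.07 and Osm at 3.55 each overlapped the next, down to Il6ra at 2.81. The ratio of Il6st to Lifr per kb was 1.31 ± 0.329 in naïve and 3.83 ± 0.399 in injured pools of young mice (SD, n = 3). Middle-aged mice had 1.67 ± 0.0538 in naïve and 4.40 ± 0.631 in injured pools.

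**Figure D3:**
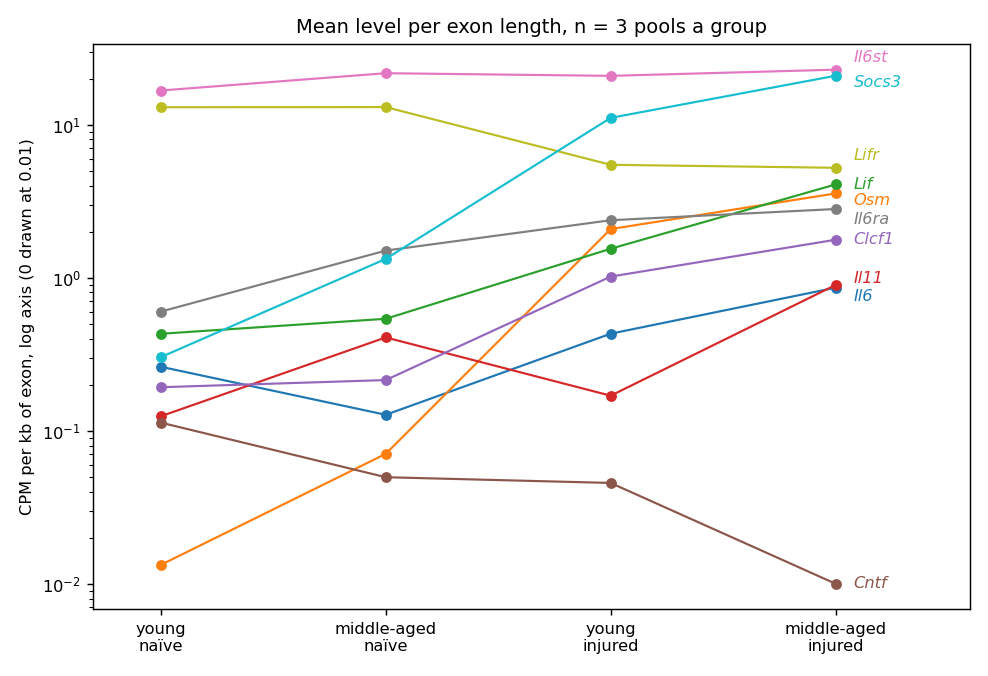
Mean CPM per kb of exon (log axis, 0 drawn at 0.01) of the 10 members in the 4 groups, n = 3 pools each. Il6st stays between 16.7 and 22.9, Socs3 goes from 0.303 and 1.33 in naïve to 11.1 and 20.9 in injured pools, and Osm from 0.0133 and 0.0706 to 2.08 and 3.55.

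Among the other ligands and receptors of the family, 7 of 9 were tested, and at each age 4 were called higher and 1 lower in lesions, where 54.6% (young) and 58.5% (middle-aged) of all genes were called. The 7 had median log2 fold changes of 2.48 and 2.13. Osmr, the partner chain for oncostatin M, had 37, 87 and 39 counts in naïve and 520, 468 and 464 in injured pools of young mice. Middle-aged mice had 68, 55 and 123 counts in naïve and 337, 448 and 391 in injured pools. It rose by 2.82 ± 0.28 in young (SE, adjusted p = 1.07e-06, edgeR) and 2.13 ± 0.27 in middle-aged mice (SE, adjusted p = 1.03e-05, edgeR). The ratio of Osmr to Lifr per kb was 0.0327 ± 0.0141 and 0.0465 ± 0.0106 in young and middle-aged naïve pools, and 0.554 ± 0.0570 and 0.516 ± 0.0864 in injured pools (SD, n = 3). Cntfr, which binds CNTF, was the 1 called lower, by -1.60 (adjusted p = 0.000284, edgeR) and -1.53 (adjusted p = 0.000621, edgeR). Ebi3 and Il27, which encode the subunits of IL-27, were higher by 3.43 and 2.76 in young and by 3.21 and 3.37 in middle-aged lesions, and Il11ra1, the IL-11 receptor, was not called (-0.11 and -0.03).

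The kinases and adaptors moved both ways. Of 12 JAK-STAT, SHP2 and adaptor genes, 7 were called higher and 3 lower at each age, against the same shares of all genes, with median log2 fold changes of 0.46 and 0.51. Stat3 was 163 ± 13.9 CPM in young naïve and 234 ± 10.2 in young injured pools, and 182 ± 21.6 and 236 ± 12.2 in middle-aged pools (SD, n = 3), with log2 fold changes of 0.52 (adjusted p = 0.00138, edgeR) and 0.38 (adjusted p = 0.0103, edgeR). Jak1 (0.17 and 0.05) and Jak2 (0.25 and 0.20), kinases bound to gp130, were not called. Tyk2, which encodes another such kinase, was higher by 1.02 (adjusted p = 0.0335, edgeR) and 1.60 (adjusted p = 0.00245, edgeR). Its young pools overlapped, with naïve pools up to 9.56 CPM and injured pools from 8.65 CPM. Stat5a (1.75 and 1.96) and the adaptor Shc1 (1.71 and 1.67) had the highest values. The docking protein gene Gab1 (-1.61 and -2.03) and Sos1 (-0.89 at both ages), which couples receptors to RAS, had the lowest, and Ptpn11, encoding SHP2, was lower by -0.62 and -0.71.

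Of 10 inhibitors and receptor-shedding genes 9 were tested, and 8 were called higher and none lower at both ages by edgeR, where 28.3% (young) and 29.2% (middle-aged) of all genes were called higher, with medians of 1.02 and 1.08. The highest were the phosphatase genes Ptprc (4.73 and 3.96) and Ptpn6 (4.39 and 3.48), both characteristic of leukocytes, and Ptprc is also on the pan-myeloid list. Among 20 genes known to respond to STAT3, 19 were tested, and 15 were called higher and 2 lower after young injury, 16 and 2 after middle-aged injury, beside 26.3% and 29.3% of all genes lower and the shares higher just given, with medians of 2.87 and 2.57. Timp1, an inhibitor of matrix proteases, rose by 5.83 and 5.88, the astrocyte protease inhibitor gene Serpina3n by 5.24 and 3.64, and the iron-binding lipocalin gene Lcn2 by 4.46 and 5.53. Pim3, a kinase gene, fell by 1.37 and 0.63, and Gfap, the astrocyte filament gene that is also on the astrocyte list, fell by 0.77 and 1.11. Many of these genes respond to other signals too.

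**Figure D4:**
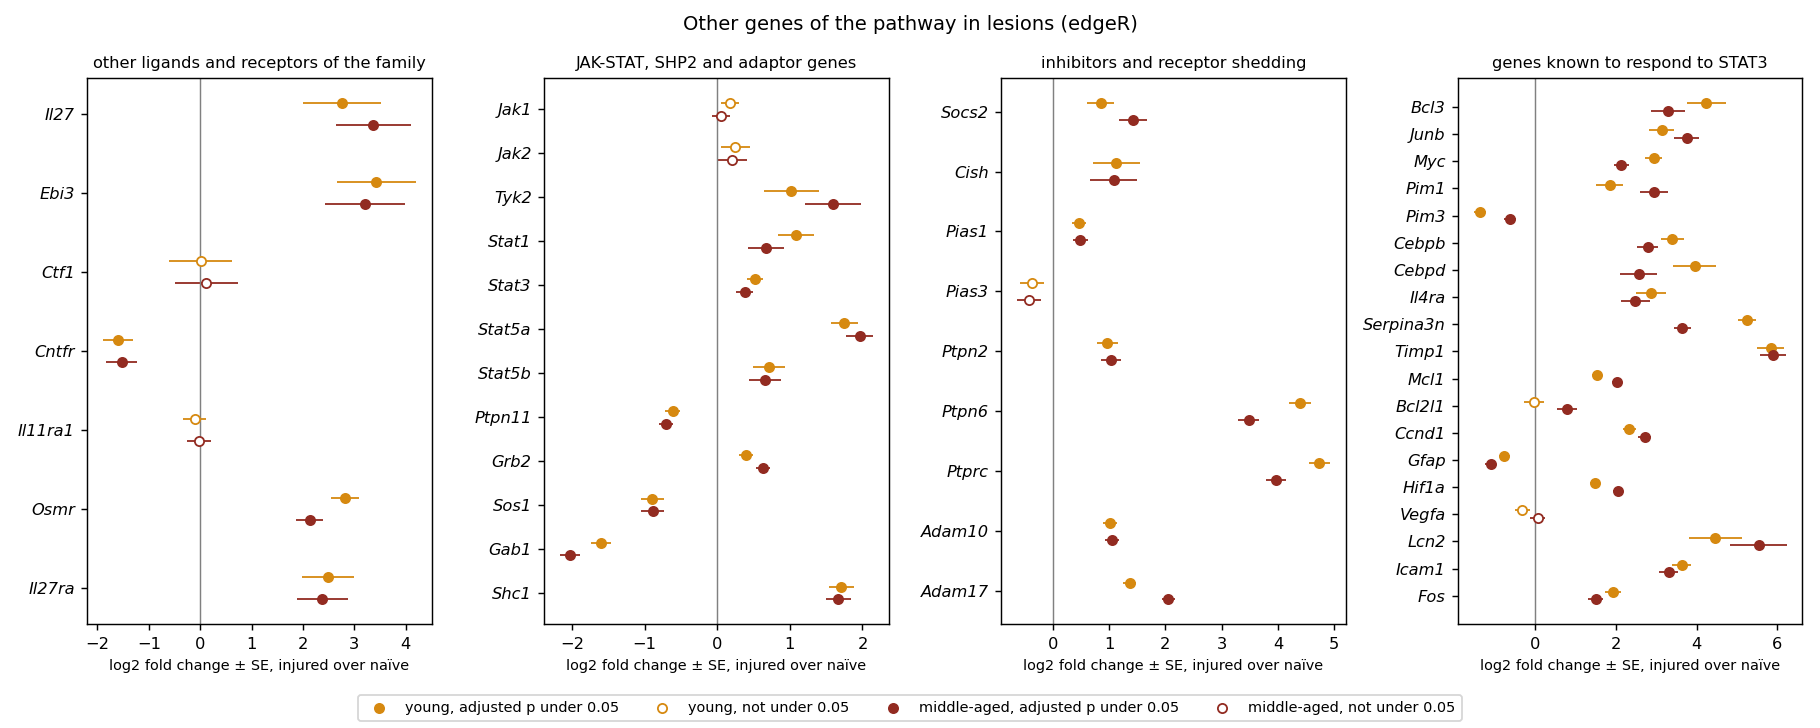
Log2 fold change ± SE of injured over naïve white matter for 4 lists of pathway genes, in young (orange) and middle-aged (dark red) mice, with filled points for an adjusted p under 0.05. Inhibitor and STAT3-responsive genes lie mostly to the right, up to 5.88 for Timp1, while Gab1, Sos1, Ptpn11, Cntfr, Pim3 and Gfap lie to the left at both ages.

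The age comparison without injury addressed whether the family differed before any lesion. It called 2 of 9 members, both higher in middle-aged mice, where 3.80% of all genes were called (2.02% higher and 1.78% lower). Il6ra was 5.19 ± 1.63 CPM in young and 13.0 ± 4.63 CPM in middle-aged naïve pools (SD, n = 3), a log2 difference of 1.32 ± 0.29 (SE, adjusted p = 0.0218, edgeR), and the groups did not overlap. Socs3 differed by 2.06 ± 0.54 (SE, adjusted p = 0.0480, edgeR), and its groups did not overlap either, at 0.537 to 1.09 against 1.53 to 7.65 CPM. The Il6ra call was lost without young naïve replicate 1 (adjusted p = 0.0937), without young naïve replicate 3 (adjusted p = 0.0716), without middle-aged naïve replicate 3 (adjusted p = 0.0580), or with the 6 naïve pools fitted alone (adjusted p = 0.192). The Socs3 call was lost without any 1 of 10 pools, the exceptions being middle-aged naïve replicates 1 and 3. Without middle-aged naïve replicate 2, which held 73 counts against 16 and 29 and stood apart from the other pools, the difference was 1.122 (adjusted p = 0.117, edgeR).

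The other 7 members were not called between the naïve groups. Il11 was 0.182, 0.272 and 0.322 CPM in young and 0.767, 0.734 and 1.039 CPM in middle-aged pools, with 2 to 3 against 7 to 13 counts, and its log2 difference was 1.69 (95% interval 0.07 to 3.32, adjusted p = 0.251, edgeR). Il6st differed by 0.38 (95% interval 0.09 to 0.66, adjusted p = 0.144, edgeR) and Lifr by 0.00 (95% interval -0.28 to 0.28, adjusted p = 1.0, edgeR). Lif (0.35), Clcf1 (0.17), Osm (1.96, on 1 against 5 counts) and Il6 (-1.15) had adjusted p of 0.367 to 0.904 and overlapping pools. Of the pan-myeloid markers, Cd68, Itgam and Ptprc were called higher in the middle-aged naïve pools, and 3 of 6 oligodendrocyte markers lower. Their part in the values of Il6ra and Socs3 was not tested.

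In lesions, no member was called between the ages, where 1.15% of all genes were called (0.240% higher and 0.908% lower at the older age). Those shares are from edgeR. DESeq2 called 1 of the 9, Lif (adjusted p = 0.047, DESeq2), and its share of all genes called is not given here. The ligands Osm, Lif and Il11 and the inhibitor Socs3 had an unadjusted p under 0.05 in edgeR. For these and for Clcf1 the middle-aged pools were all above the young pools. The shares of all genes with such a p or such separation were not computed. These values therefore describe single members and are not a result about the family. Lif was 6.72 ± 1.81 CPM in young and 17.7 ± 7.66 CPM in middle-aged injured pools (SD, n = 3), a log2 difference of 1.39 (95% interval 0.52 to 2.27, adjusted p = 0.145, edgeR). Il11 differed by 2.38 (95% interval 0.96 to 3.80, adjusted p = 0.121, edgeR) and by 1.17 without middle-aged injured replicate 2. Socs3 differed by 0.91 (95% interval 0.17 to 1.66, adjusted p = 0.328, edgeR), Osm by 0.77 (95% interval 0.10 to 1.45, adjusted p = 0.392, edgeR) and Clcf1 by 0.80 (95% interval -0.05 to 1.65, adjusted p = 0.570, edgeR). Lif passed the threshold under 3 of 20 alternatives and Socs3 under 3 of 20, including the fit without middle-aged naïve replicate 2 (Socs3, adjusted p = 0.0149).

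The receptor genes showed narrower intervals in the same comparison. Il6st differed by 0.13 (95% interval -0.15 to 0.42), Il6ra by 0.24 (95% interval -0.32 to 0.81) and Lifr by -0.06 (95% interval -0.35 to 0.22). Il6, at 0.98 (95% interval -0.85 to 2.81), could not be placed. The summed pan-myeloid CPM was higher in each middle-aged injured pool, at 1316 to 1756, than in each young injured pool, at 1219 to 1258. No single marker of that list was called. Pools of Cd68 (mean 742 CPM in young, 1011 in middle-aged lesions), Itgam and Ptprc did not overlap between the ages. Those of Csf1r and Aif1 did. In middle-aged lesions 5 of 6 oligodendrocyte, 2 of 4 fibroblast and 1 of 5 astrocyte markers were called lower, beside 0.908% of all genes. No tested marker of the other lists was called. The part of these shifts in the members' values was not tested.

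**Figure D5:**
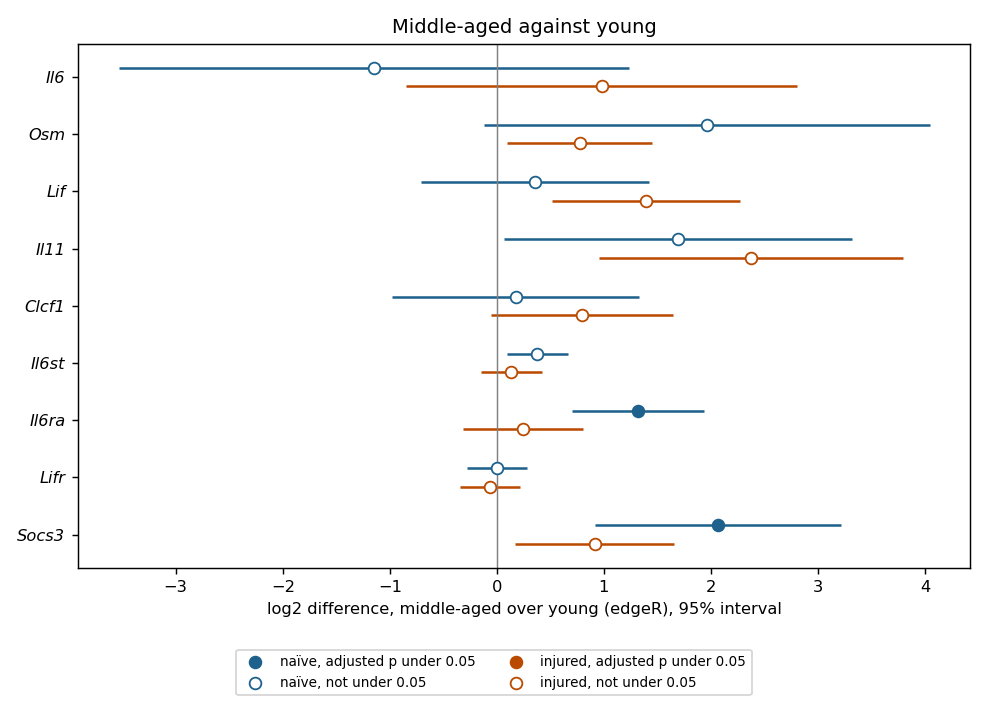
Log2 difference of middle-aged over young for the 9 members tested, with 95% intervals, in naïve (blue) and injured (orange-red) white matter. Filled points, for Il6ra and Socs3 in naïve tissue, have an adjusted p under 0.05, and the injured values of Osm, Lif, Il11 and Socs3 have intervals above 0.

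The difference between the injury effects of the ages was tested as an interaction. It called none of the 9 members, where 0.139% of all genes were called (0.0567% with a larger and 0.0819% with a smaller effect in middle-aged mice). Il6ra had an unadjusted p of 0.0146 in edgeR. DESeq2 called none of the 9 as well. The injury effect on Il6ra was smaller in middle-aged mice by -1.08 ± 0.39 on the log2 scale (SE, adjusted p = 0.342, edgeR). For Lif the effect was larger by 1.041 (adjusted p = 0.657) and for Socs3 smaller by -1.15 (adjusted p = 0.615, edgeR). With a pool left out the Lif value ranged from 0.604 (without young naïve replicate 1) to 1.814 (without middle-aged naïve replicate 3), and that of Socs3 from -1.518 (without middle-aged naïve replicate 1) to -0.208 (without middle-aged naïve replicate 2). Injury effects that were called at 1 age and not at the other, such as that on Il6 (difference 2.13, adjusted p = 0.676, edgeR), are thus not shown to differ.

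Of the 47 pathway genes tested, 6 were called between the naïve ages, where 3.80% of all genes were called, and 1 between the injured groups, where 1.15% were called. Without injury none of the 7 other ligands and receptors or of the 12 JAK-STAT genes was called by edgeR. Cntfr and Jak1 had an unadjusted p of 0.00867 and 0.0411 in edgeR. Of the inhibitors, Ptpn6 (1.17) and Ptprc (1.17) were higher and the sheddase gene Adam17 was lower (-0.60) in middle-aged naïve pools, and of the STAT3-responsive genes Myc (1.1), Fos (1.05) and Serpina3n (0.77) were higher. These calls were kept without any single pool, except that of Serpina3n, and all were lost with the naïve pools fitted alone (adjusted p = 0.0999 to 0.250, edgeR). In lesions, Serpina3n alone was called among the 4 lists, at 924 ± 182 CPM in young and 522 ± 20.3 CPM in middle-aged pools (SD, n = 3), a log2 difference of -0.82 ± 0.19 (SE, adjusted p = 0.0468, edgeR). That call was kept in 3 of 12 fits that left out 1 pool, with adjusted p of 0.011 to 0.243, and was lost with RLE factors (adjusted p = 0.0519, edgeR).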

How the data were processed

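RNA from laser-captured white matter was pooled from 5 mice per sample, and RNA was amplified when libraries were built. Per the labels and the study's methods, the authors aligned reads to GRCm38 with TopHat and counted them per gene with featureCounts. The deposited values are raw counts for 46078 Ensembl genes. The strand setting, the annotation release and the handling of shared reads are not given in the sources used here. Symbols and positions came from GENCODE M21 on GRCm38.

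Counts were tested with edgeR 4.0.16 (R 4.3.3): TMM factors, filterByExpr by group, and 1 quasi-likelihood model over the 12 pools with 1 coefficient per group. Adjustment was by Benjamini-Hochberg over 15866 genes, with a threshold of 0.05. Labels name pools as replicates, and p-values measure the spread between pools. Standard errors are the log2 fold change divided by the root of F, and intervals use the fit's degrees of freedom. Intervals from counts cover counting error only. DESeq2 1.42.0, other scalings (RLE, upper quartile, library totals), other filters, a replicate block, fits of the compared pools alone and leaving out each pool were alternatives. The fit was also run on simulated counts with 200 genes changed, far fewer than were called after injury. That run therefore does not address the scaling under so broad a change.

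All 10 members were named in the comparisons of injured with naïve tissue. The comparisons between ages left out Cntf, which was not in the test across genes, and the interaction was described for only some members. From the pathway lists a selection of genes was named, among them those with the highest called values and some partners of the members. The lowest called genes were not named for every list. The members and lists were chosen with earlier results of these data known. A gene of the pathway lists is not reported here and was left out of its list's counts.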

Additional observations from a re-analysis of the deposited data

Results flagged for a closer look

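Serpina3n, an astrocyte protease inhibitor gene on the list of STAT3-responsive genes, had an injury effect that differed between the ages by a test of the difference itself. The effect was 5.24 in young and 3.64 in middle-aged mice on the log2 scale, a difference of -1.60 ± 0.27 (SE, adjusted p = 0.0340, edgeR). The mean level was 24.5 CPM in young naïve, 41.9 CPM in middle-aged naïve, 924 CPM in young injured and 522 CPM in middle-aged injured pools. The difference lay between -1.81 and -1.40 when each pool was left out in turn, and its adjusted p between 0.00521 and 0.126. It stayed under the threshold in 3 of those 12 fits, without middle-aged naïve replicate 1, middle-aged naïve replicate 2 or young injured replicate 1. It also stayed under the threshold in all 7 other settings tried. The summed CPM of the 5 astrocyte markers was 4448 to 5132 in young injured and 3263 to 4545 in middle-aged injured pools, which overlapped. Fibroblast markers summed to 633.5 to 1024 and 287.3 to 555.7 in the same pools. The oligodendrocyte sum was 18230 to 20230 and 7920 to 12430. The pan-myeloid sum went the other way, at 1219 to 1258 and 1316 to 1756. The part of these shifts in the Serpina3n difference was not tested.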

How the results depend on the processing

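The injury calls of Osm, Lif, Clcf1, Il6ra, Lifr and Socs3 were kept at both ages under all 20 alternatives. Of 891 alternative values for 45 member results, 846 kept their direction and side of the threshold and 14 changed sign. The members called after injury ranged from 6 to 7 at either age when a pool was left out. In naïve tissue the 2 called members became 0 with the compared pools alone and 0 to 2 when a pool was left out. In lesions the count between ages went from 0 to 2 without a filter, 2 with the compared pools alone, 1 in DESeq2 and 0 to 1 when a pool was left out. Pathway calls in naïve tissue went from 3 to 0 for inhibitors with the compared pools alone, and from 3 to 5 (no filter) or 0 (compared pools alone) for STAT3-responsive genes. For the latter, calls between injured groups went from 1 to 0 (RLE), 2 (no filter), 5 (compared pools alone), 2 (DESeq2) and 0 to 2 (pool left out), and interaction calls from 1 to 3 in DESeq2 and 0 to 1 with a pool left out. DESeq2 called 1 inhibitor in the interaction. The shares of all genes called under these other settings are not given here. The counts therefore show only that the calls depended on the setting. The cause was not tested.

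Sign changes were near 0 or on few counts: Lifr between naïve groups (-0.011 without a filter, -0.006 with the replicate block, -0.085 to 0.099 with a pool left out), and with a pool left out Il11 (-0.094 to 1.517) and Il6st (-0.021 to 0.15) after middle-aged injury, Lif (-0.42 to 0.79) and Clcf1 (-0.227 to 0.817) between naïve groups, Il6 between injured groups (-0.028 to 1.353), and Il11 (-0.533 to 1.079), Clcf1 (-0.021 to 1.054) and Lifr (-0.164 to 0.02) in the interaction. Deviations of same-numbered pools correlated at -0.113 to 0.153, so the replicate numbers were not taken as pairing. With the replicate block 6 members were called after middle-aged injury, Il6 being lost (adjusted p = 0.0521, edgeR). Library totals alone shifted the median of all genes by 0.195 in young and 0.109 in middle-aged injury.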
